A study of Macaca mulatta with 30 samples.

Results

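The genes described here are 10 transcription factors of the exocrine and endocrine pancreas: PTF1A, RBPJL, NR5A2, BHLHA15, XBP1, GATA4, PDX1, NKX6-1, NEUROD1 and INSM1. They were chosen by name, and all 10 were found among the 21292 gene names of the deposited table. RNA sequencing values were available for 5 tissues of 6 rhesus macaques (Macaca mulatta), with 1 library per tissue and animal and 30 libraries in all. The tissues were pancreas, liver and 3 salivary glands: parotid, submandibular and sublingual. Animals 1 to 4 were female and animals 5 and 6 male, the labels name no treatment, genotype or age, and the animals are the biological replicates. The values are TPM, a transcript abundance corrected for length, so levels may be compared between genes; all libraries have the same total. The question was which factors of pancreatic acinar cells are also transcribed in the salivary glands, whose acinar cells secrete protein too.

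Acinar cells make and export digestive enzymes or salivary proteins, and islet cells make hormones. In pancreatic acinar cells PTF1A pairs with an E protein and with RBPJL in a trimeric complex that acts on the enzyme genes, and the nuclear receptor NR5A2 works beside it. BHLHA15 (also known as MIST1) and XBP1 serve secretory cells in general: the former organises granules and apical secretion, and the latter expands the endoplasmic reticulum. GATA4 takes part in the early development of pancreas and of other endodermal organs, PDX1 and NKX6-1 are known from pancreatic progenitors and beta cells, and NEUROD1 and INSM1 from endocrine differentiation.

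3 libraries of animal 4 were low in the usual genes of their label. This touches every comparison with pancreas, submandibular gland or sublingual gland. The median of 15 acinar enzyme genes was 191 TPM in its pancreas and at least 7694 TPM in the other 5. The median of 9 salivary genes was 68.7 TPM in its submandibular gland and at least 2047 TPM in the other 5. In its sublingual gland the salivary genes summed to 5164 TPM, which lay within the pancreas range of 3852 to 6253 TPM. By median the same library stood at 184 TPM, above every pancreas library (at most 118 TPM). The other 5 sublingual libraries had medians of at least 433 TPM. The median of 6 adipocyte genes stood at 833 TPM in that pancreas and 687 TPM in that submandibular gland, against at most 65.7 and 4.99 TPM in the other 5 libraries of each tissue. The parotid library of animal 6 held skeletal muscle genes at a median of 9681 TPM. These libraries were kept, and the differences of the 10 factors between the glands and pancreas are given with and without animal 4. Beyond that, the part of adipocyte and muscle genes in the differences was not tested. In bulk tissue, fewer cells of a type and less RNA per cell cannot be told apart.

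Of the 10 factors, BHLHA15 was the one whose parotid and submandibular medians came near that of pancreas, and XBP1 was present in every library at 49.5 TPM or more. PTF1A, RBPJL, PDX1, NKX6-1, NEUROD1 and INSM1 had medians in pancreas at least 26.9 times those of any other tissue in which the median was above 0. NR5A2 and GATA4 were high in pancreas and liver and low in all 3 glands.

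**Figure D1:**
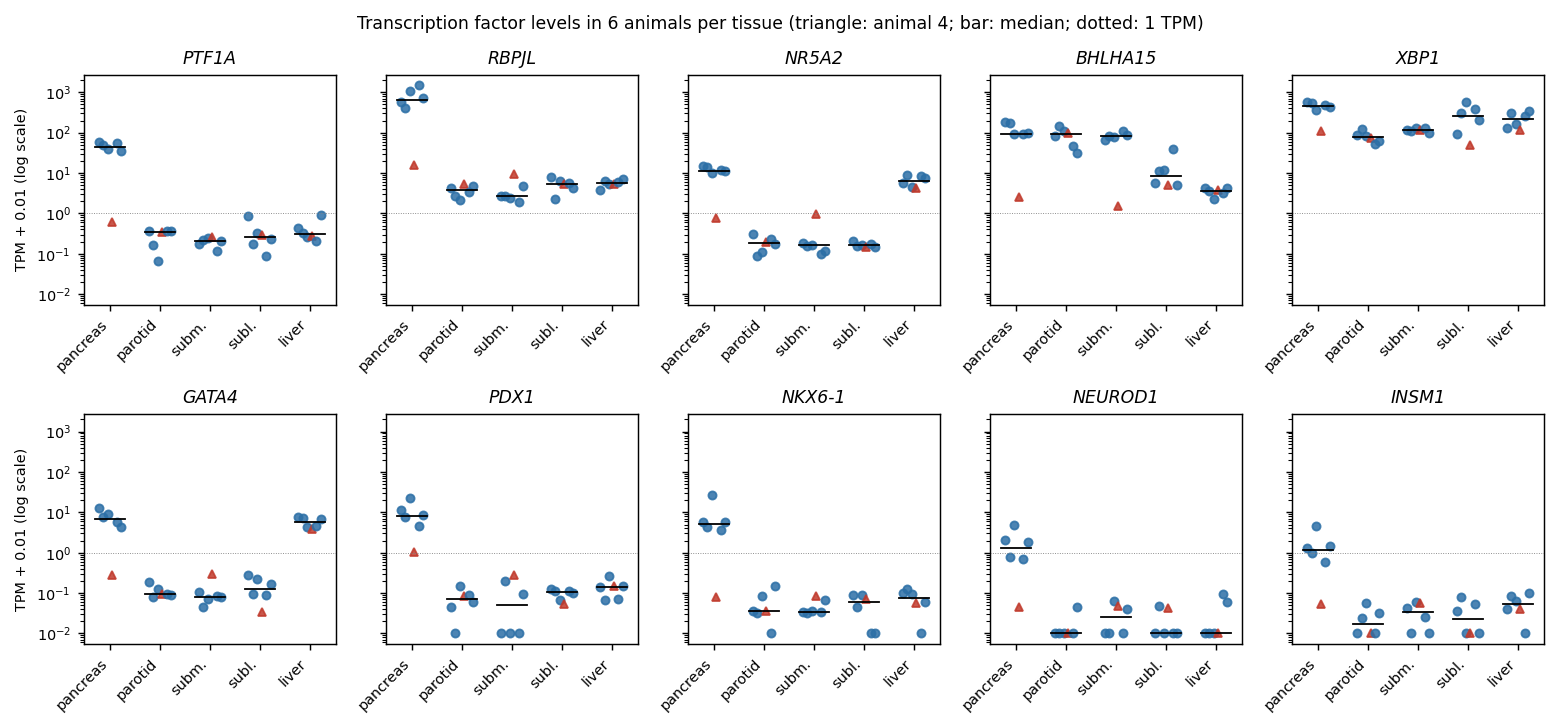
TPM of each factor (log scale, with 0.01 added) in the 6 libraries of each tissue, with the median as a bar and animal 4 as a triangle. BHLHA15 is the factor with parotid and submandibular medians (90.6 and 80.9 TPM) close to that of pancreas (95.1 TPM), and NR5A2 and GATA4 reach pancreas-like levels in liver only.

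PTF1A, the basic helix-loop-helix subunit that gives the acinar complex its pancreas specificity, was at 57.3, 49.5, 39.3, 0.609, 55.2 and 34.9 TPM in the pancreas of animals 1 to 6. It ranged from 0.056 to 0.36 TPM in parotid, from 0.109 to 0.257 TPM in submandibular and from 0.08 to 0.865 TPM in sublingual gland, and from 0.194 to 0.905 TPM in liver. The 5 pancreas libraries other than that of animal 4 lay far above all 24 libraries of the other tissues, and the pancreas of animal 4 lay among them. PTF1A was below the filter on low values (at least 1 TPM in at least 6 libraries), so its differences come from a limma fit without that filter. On the log2(TPM + 1) scale its differences from pancreas were -4.42 (parotid), -4.50 (submandibular) and -4.37 (sublingual) (SE 0.51 each, limma adjusted p = 3.96e-06, 3.85e-06 and 3.48e-06, lower in 6 of 6 animals). Pancreas exceeded liver by 4.29 (adjusted p = 7.09e-07 in limma). Without animal 4 the 3 gland differences were -5.25, -5.33 and -5.18. In that fit 10.7% of all genes were called lower in parotid than in pancreas, as were 6.66% (submandibular) and 3.76% (sublingual), and 6.61% were called higher in pancreas than in liver.

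RBPJL, the pancreas-restricted relative of the Notch mediator RBPJ, was the most abundant of the 10 factors in pancreas. Its pancreas values were 582, 398, 1079, 15.8, 1518 and 731 TPM in animals 1 to 6, or 721 ± 526 TPM (SD, n = 6). The lowest, median and highest parotid values were 2.08, 3.85 and 5.42 TPM. The same values were 1.94, 2.70 and 9.41 TPM in submandibular gland, 2.26, 5.40 and 7.96 TPM in sublingual gland and 3.87, 5.81 and 6.95 TPM in liver. Pancreas did not overlap with any other tissue, and the highest submandibular value was in animal 4. The differences from pancreas were -6.46 (parotid), -6.51 (submandibular) and -6.10 (sublingual) (SE 0.64, limma adjusted p = 1.21e-07, 1.51e-07 and 1.38e-07, lower in 6 of 6 animals). Pancreas exceeded liver by 5.95 (SE 0.64, limma adjusted p = 2.63e-08). Without animal 4 these differences were -7.48, -7.68, -7.03 and 6.86.

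RBPJL thus stayed above 1 TPM in all 30 libraries, and PTF1A above 0. The level outside pancreas was set beside that of genes for acinar enzymes and granule proteins. Of the 14 acinar genes with a pancreas median of at least 100 TPM, the medians in parotid were 0.454 to 1.02% of the pancreas median, apart from the kallikrein KLK1 at 24.8%. KLK1 was also high in submandibular gland (81.5%) and sublingual gland (41.8%). The median of these shares was 0.752% in parotid, 0.544% in submandibular gland, 0.72% in sublingual gland and 0.87% in liver. The RBPJL shares were 0.587, 0.411, 0.823 and 0.886% in the same order, and those of PTF1A 0.771, 0.456, 0.574 and 0.669%. In each gland both shares lay within the range of the 14 acinar genes, as the plot of shares shows. In liver RBPJL did too, and PTF1A lay just below the lowest of them, PRSS1 at 0.681%. In reverse, 11 hepatocyte genes had medians in pancreas at 0.731 to 1.10% of their liver medians. Whether PTF1A and RBPJL are transcribed in the glands themselves was not tested. The sequencing depth is unknown, and no detection limit can be given.

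**Figure D2:**
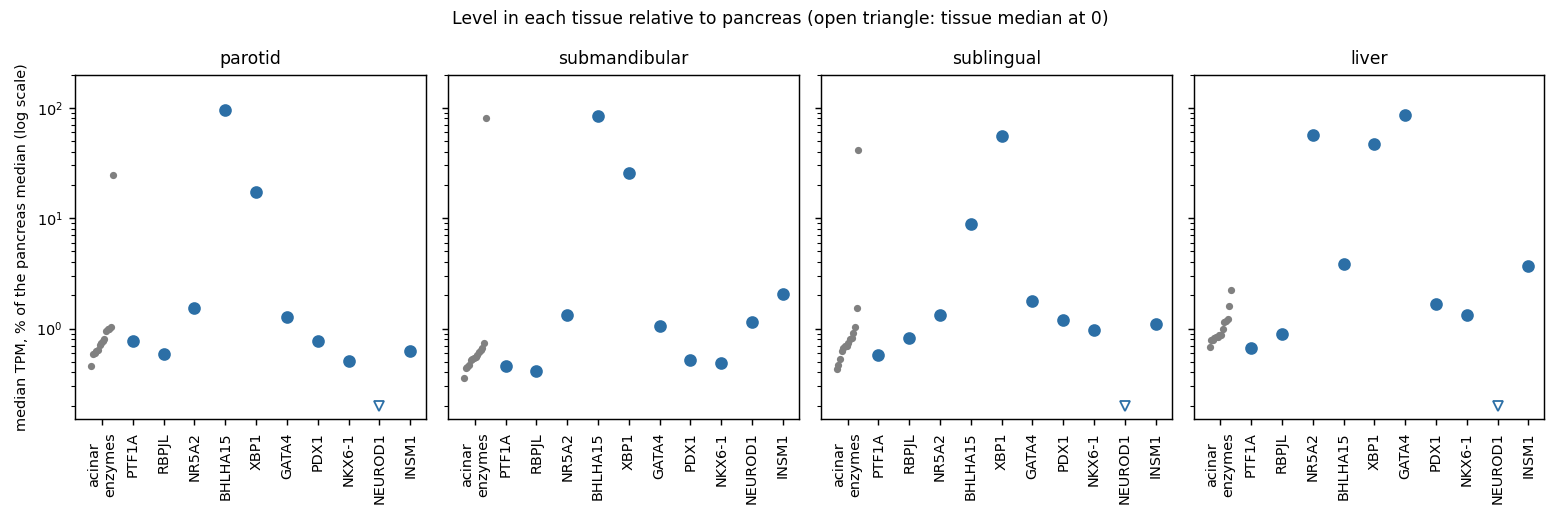
Median TPM in each tissue as a percentage of the pancreas median (log scale), with small grey points for the 14 acinar enzyme genes and large points for the 10 factors. PTF1A and RBPJL lie among the enzymes in each gland, with PTF1A just below them in liver, while BHLHA15 stands at 95.2% in parotid and 85.1% in submandibular gland and NR5A2 and GATA4 at 56.8 and 86.7% in liver.

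The PTF1A partners RBPJ, TCF3 and TCF12 had transcripts in every tissue, with TCF12 in parotid the lowest at a mean of 0.9366 TPM. RBPJ, the broadly expressed DNA-binding protein of Notch signalling that RBPJL can replace, had medians of 6.03 TPM in pancreas, 2.56 in parotid, 2.99 in submandibular gland, 9.66 in sublingual gland and 4.38 in liver. The E proteins TCF3 and TCF12 had pancreas medians of 5.42 and 1.70 TPM and parotid medians of 5.10 and 0.856 TPM. Of 6 tested partner genes, 0 were called in limma when pancreas was set against any gland or liver, and 1 of them in parotid passed an unadjusted p of 0.05. This was RBPJ, at -0.96 in parotid against pancreas (SE 0.35, limma adjusted p = 0.0603). With trimmed-mean scaling, which rescales each library to the middle of its genes, 3 of the 6 were higher in pancreas than in liver and 1 was higher in submandibular gland than in pancreas. The median difference of the 6 was -0.34 in parotid, beside -0.48 over all genes. Over the 30 libraries, the level of RBPJL was most like those of CLPS and CELA3B, which encode colipase and an elastase, and of the glucagon gene GCG. Pearson's r of log2(TPM + 1) was 0.985, 0.984 and 0.981 for these, a likeness that rests on the contrast of pancreas with the other tissues.

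NR5A2, an orphan nuclear receptor that also acts on bile acid genes in liver, divided the tissues another way. Its lowest, median and highest values were 0.757, 11.4 and 15.1 TPM in pancreas, where animal 4 was the lowest and the next was at 9.99. They were 4.37, 6.47 and 9.05 TPM in liver and 0.0757, 0.173 and 0.301 TPM in parotid. In submandibular gland they were 0.087, 0.152 and 0.965 TPM, with animal 4 the highest, and 0.134, 0.152 and 0.193 TPM in sublingual gland. Every liver library lay above every gland library, and so did every pancreas library except that of animal 4, which the submandibular library of that animal exceeded. NR5A2 reached 1 TPM in 11 libraries, all of pancreas or liver, and passed the filter through these. The NR5A2 differences from pancreas were -3.01 (parotid), -2.92 (submandibular) and -3.03 (sublingual) (SE 0.34, limma adjusted p = 5.34e-07, 8.07e-07 and 3.18e-07, lower in 6, 5 and 6 of 6 animals).

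Between pancreas and liver NR5A2 differed by 0.36 (SE 0.34, 95% interval -0.33 to 1.06, limma adjusted p = 0.442). That result rested on animal 4: without it pancreas was higher by 0.76 (SE 0.17, limma adjusted p = 0.00104). Without animal 4 the gland differences were -3.50, -3.54 and -3.51. Outside pancreas, NR5A2 stood at 1.52, 1.34 and 1.34% of its pancreas median in the 3 glands, above all enzymes but KLK1 in parotid and submandibular gland, though the levels were under 0.2 TPM.

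GATA4, a zinc-finger factor of endoderm and heart, had almost the same profile. Its lowest, median and highest values were 0.273, 6.74 and 13.1 TPM in pancreas and 3.83, 5.85 and 7.75 TPM in liver, with at most 0.288 TPM in any gland. The 5 pancreas libraries other than that of animal 4 and the 6 liver libraries were above all 18 gland libraries. Against pancreas GATA4 differed by -2.49 (parotid), -2.49 (submandibular) and -2.45 (sublingual) (SE 0.31, limma adjusted p = 1.85e-06, 2.42e-06 and 1.85e-06, lower in 6, 5 and 6 of 6 animals), and by -2.94, -2.995 and -2.87 without animal 4. Pancreas and liver differed by -0.10 (95% interval -0.74 to 0.53, limma adjusted p = 0.835), a direction that turned to 0.26 without animal 4 and to 0.46 with trimmed-mean scaling (adjusted p = 0.272 and 0.282).

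NR5A2 and GATA4 were the most alike of any pair that included either of them among the 10 factors, with r = 0.978 over 30 libraries. The 3 genes most like NR5A2 were GATA4, XDH (0.969) and MAT1A (0.948), and those most like GATA4 were XDH (0.979), NR5A2 and MAT1A (0.966). XDH encodes xanthine dehydrogenase and MAT1A the adenosyltransferase of methionine metabolism. Against liver, NR5A2 was lower by -2.64, -2.56 and -2.67 and GATA4 by -2.59, -2.60 and -2.55 in parotid, submandibular and sublingual gland, each called in limma. Both passed the filter through pancreas and liver libraries only, so a difference from liver was in part built into their being tested. Calls in this direction were common: 53.4% of all genes were lower in parotid than in liver, 45.1% in submandibular gland and 18.7% in sublingual gland. GATA6, a close relative of GATA4, was lower than in pancreas by -2.52, -2.08 and -2.39 in the 3 glands (limma adjusted p = 1.79e-05, 0.000274 and 3.09e-05).

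BHLHA15 was the acinar factor whose medians in parotid and submandibular gland came near that of pancreas. Its values in animals 1 to 6 were 187, 176, 94.6, 2.57, 93.9 and 95.7 TPM in pancreas. They were 83.9, 145, 111.5, 97.3, 46.3 and 30.6 TPM in parotid, and in submandibular gland 64.2, 84.9, 76.9, 1.55, 111 and 90.1 TPM. Sublingual gland was lower, at 5.52, 11.3, 11.8, 5.10, 39.0 and 4.93 TPM, and liver ranged from 2.32 to 4.26 TPM with a median of 3.67 TPM. The ranges of the first 3 tissues overlapped, all 6 parotid libraries and 5 submandibular libraries were above all liver libraries, and the 6 sublingual libraries also lay above liver, by a small margin. The order of the medians was pancreas (95.1 TPM), parotid (90.6), submandibular gland (80.9), sublingual gland (8.41) and liver (3.67), and the first 3 did not differ beyond their spread.

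In the fit, BHLHA15 differed from pancreas by 0.16 in parotid (SE 0.68, 95% interval -1.24 to 1.56, limma adjusted p = 0.863, lower in 4 of 6 animals). The difference was -0.53 in submandibular gland (95% interval -1.94 to 0.87, adjusted p = 0.672 in limma, lower in 5 of 6). These intervals allow differences of more than 1 in either direction for parotid, so equality is not shown. Without animal 4 the parotid difference turned to -0.76 (SE 0.42, limma adjusted p = 0.209) and the submandibular one was -0.54. Leaving out the muscle-rich parotid library of animal 6 gave 0.46. Trimmed-mean scaling gave 0.83 and 0.066. Sublingual gland was lower than pancreas by -2.68 (SE 0.68, limma adjusted p = 0.00727, 5 of 6 animals), and by -3.37 without animal 4. That call was lost without animal 1 or animal 2 (-2.25 and -2.45, limma adjusted p = 0.0899 and 0.0627).

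Liver, where hepatocytes secrete protein without storage granules, set the low end. Parotid exceeded liver in BHLHA15 by 4.09 (SE 0.68, limma adjusted p = 1.98e-05, 6 of 6 animals) and submandibular gland did so by 3.40 (adjusted p = 0.00022 in limma, 5 of 6), or by 4.26 without animal 4. Pancreas exceeded it by 3.93 (limma adjusted p = 5.31e-05, 5 of 6). BHLHA15 was the only one of the 6 tested factors called higher in these glands than in liver, where 4.61% of all genes were called higher in parotid and 5.68% in submandibular gland. Sublingual gland differed from liver by 1.25 (95% interval -0.15 to 2.65, limma adjusted p = 0.179), higher in 6 of 6 animals. Without animal 4 that difference was 1.43 (limma adjusted p = 0.00902), while 12.8% of all genes were called higher in sublingual gland than in liver.

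Among the glands, BHLHA15 was higher in parotid than in sublingual gland by 2.85 (limma adjusted p = 0.00246, 6 of 6 animals), where 0.893% of all genes were called higher. It was higher in submandibular than in sublingual gland by 2.15 (limma adjusted p = 0.0216, 5 of 6), where 0.753% were. The second call was lost without animal 1, 2, 3 or 6, with differences of 1.79 to 2.06 and limma adjusted p-values of 0.0719 to 0.127, and the difference was 2.83 without animal 4. Parotid and submandibular gland differed by 0.70 (95% interval -0.71 to 2.10, limma adjusted p = 1), or by -0.22 without animal 4. In that comparison 0.347% of all genes were called in either direction and 0 of the 10 factors, of which 0 also passed an unadjusted p of 0.05.

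**Figure D3:**
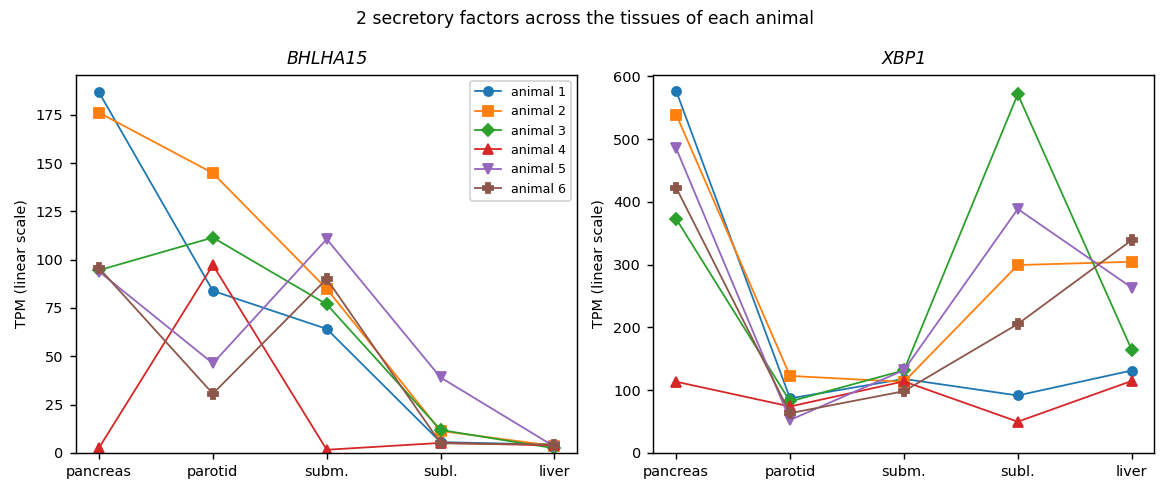
TPM (linear scale) of BHLHA15 and XBP1 across the 5 tissues, with 1 line per animal. BHLHA15 falls from pancreas, parotid and submandibular gland to sublingual gland and liver in most animals, with animal 4 near 0 in pancreas (2.57 TPM) and submandibular gland (1.55 TPM), while XBP1 is lowest in parotid for 4 of 6 animals.

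10 genes commonly described as dependent on BHLHA15 were followed in the same fits. In parotid against pancreas 0 were higher and 4 lower, beside 13.6% of all genes, with a median difference of -0.90 beside -0.48 over all genes. With trimmed-mean scaling 2 were lower, TMED6 and SLC30A2. TMED6, a protein of the secretory pathway, was lower by -5.20, SLC30A2, a zinc transporter of granules, by -4.09, and SEL1L3 by -1.21. RAB26, a granule GTPase, had medians of 59.3 TPM in pancreas, 47.8 in parotid, 40.4 in submandibular gland, 10.04 in sublingual gland and 11.4 in liver. Its difference between parotid and pancreas was 0.02 (SE 0.43, limma adjusted p = 0.979), and parotid exceeded liver by 2.01 (adjusted p = 0.000375). In submandibular gland 2 of the 10 were lower, TMED6 and SLC30A2, beside 7.46% of all genes, and trimmed-mean scaling added 2 higher, ATP2C2 and SEL1L3. In sublingual gland ATP2C2, a Golgi calcium pump, was higher and 4 were lower, with RAB26 at -2.25, where 10.4% of all genes were higher and 3.51% lower. Pancreas exceeded liver in 5 and was lower in 2 (GJB1 and ATP2C2), where 6.76% of all genes were higher and 23.6% lower.

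RAB26 thus shared with BHLHA15 its high level in pancreas, parotid and submandibular gland, while TMED6 and SLC30A2 had medians of at most 2.19 TPM in the latter 2. Across all tested genes with a symbol, the level of BHLHA15 over 30 libraries was most like those of SCAMP5 (r = 0.949), CLDN10 (0.939) and RAB26 (0.899). SCAMP5 encodes a membrane protein of secretory vesicles and CLDN10 a tight junction claudin that forms ion channels. CLDN10 had medians of 89.7 TPM in pancreas, 33.7 in parotid, 69.0 in submandibular gland, 12.9 in sublingual gland and 5.19 in liver, so its order differed from that of BHLHA15 between parotid and submandibular gland.

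XBP1, whose mRNA is spliced by the stress sensor ERN1 into its active form, was the most evenly distributed of the 10 factors. The values are per gene and do not separate the spliced form. Its values in animals 1 to 6 were 576, 539, 373, 113, 485 and 422 TPM in pancreas, 86.6, 122.5, 81.8, 73.8, 52.2 and 63.1 TPM in parotid, and in submandibular gland 118, 113, 131, 114, 132 and 98.1 TPM. In sublingual gland they were 91.3, 299, 571, 49.5, 388 and 205 TPM, and in liver 131, 304, 164, 114, 263 and 339 TPM. The submandibular values were the tightest, at 118 ± 12.7 TPM (SD, n = 6), and the sublingual ones spanned more than a 10-fold range. Animal 4 was the lowest in pancreas, sublingual gland and liver. Its pancreas value put the pancreas range into overlap with parotid, submandibular gland and liver, while sublingual gland overlapped with pancreas without it too.

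XBP1 was lower in parotid than in pancreas by -2.26 (SE 0.39, limma adjusted p = 0.000183, 6 of 6 animals) and in submandibular gland by -1.66 (limma adjusted p = 0.00564, 5 of 6). In sublingual gland the difference was -0.90 (95% interval -1.71 to -0.09, limma adjusted p = 0.141). Without animal 4 these were -2.59, -1.998 and -0.85. The submandibular call did not hold with trimmed-mean scaling (-1.12, adjusted p = 0.0855) or without animal 2 (-1.55, adjusted p = 0.0576 in limma). Pancreas differed from liver by 0.88 (95% interval 0.07 to 1.70, limma adjusted p = 0.0932), which was called without animal 4 (1.06, adjusted p = 0.0176) and with trimmed-mean scaling (1.40, adjusted p = 0.0141). XBP1 was transcribed in all 5 tissues, with pancreas at 5.83 times the parotid median, 3.92 times the submandibular median and 1.80 times the sublingual median.

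Parotid was also lower in XBP1 than liver by -1.37 (limma adjusted p = 0.00484) and than sublingual gland by -1.36 (adjusted p = 0.00931 in limma, 5 of 6 animals), where 40.6% of all genes were lower in parotid. Both depended on the scaling: with trimmed-mean factors they were -0.12 and -0.32 (limma adjusted p = 0.841 and 0.658). The second was also lost without animal 3 or animal 5 (-1.07 and -1.05, limma adjusted p = 0.0714 and 0.0897). Sublingual gland and liver differed by -0.02 (95% interval -0.83 to 0.79, limma adjusted p = 0.98).

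Plasma cells also use XBP1, and their markers were high where the sublingual gland was high in it. JCHAIN, the joining chain of secreted antibodies, was at 173, 1125, 8866, 475, 8160 and 834 TPM in the sublingual gland of animals 1 to 6, and MZB1 at 7.34, 84.9, 201, 13.3, 82.3 and 60.9 TPM. Animals 3 and 5, the 2 highest in JCHAIN, were the 2 highest in XBP1, and animals 1 and 4, the 2 lowest, were the 2 lowest in it. By MZB1 the 2 highest were animals 3 and 2, and the 2 lowest again animals 1 and 4. Animals 1 and 4 were also the lowest in summed salivary genes, at 36910 and 5164 TPM, against at least 197100 TPM in the others. Skeletal muscle genes had medians of 878 TPM in the sublingual gland of animal 1 and 2730 TPM in that of animal 5. Summed over 10 plasma cell genes the sublingual range was 197 to 9274 TPM, against 54.1 to 304 TPM in pancreas. It was 30.1 to 47.9 TPM in parotid, 51.97 to 456.5 TPM in submandibular gland and 41.5 to 120 TPM in liver. The pancreas sum was mostly DERL3, at a mean of 156 TPM there and 66.8 TPM in sublingual gland, while JCHAIN averaged 38.2 TPM in pancreas. In sublingual against pancreas 5 of 6 tested plasma cell genes were higher (all but DERL3), beside 10.4% of all genes. The part of plasma cells, or of gland and muscle content, in the XBP1 level was not tested. For BHLHA15, which plasma cells also express, the highest sublingual value was in animal 5, whose library also held the muscle gene ACTA1 at 4484 TPM.

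22 endoplasmic reticulum genes commonly described as induced by XBP1 were lower in parotid than in pancreas in 13 cases, beside 13.6% of all genes, and higher in 0, with a median difference of -1.12 beside -0.48 over all genes. SDF2L1, a chaperone cofactor, was lower by -2.07, the disulfide isomerase PDIA4 by -1.92 and the co-chaperone DNAJB9 by -1.78. With trimmed-mean scaling 2 of the 22 were lower. In submandibular gland 3 were lower (SDF2L1, PDIA4 and MANF), beside 7.46% of all genes, and 11 without the pancreas and submandibular libraries of animal 4. In sublingual gland 0 were called in limma, although 3 passed an unadjusted p of 0.05, and 3 were lower with trimmed-mean scaling. Against liver, pancreas was lower in PDIA4 (-2.08) and ERN1 (-0.81) and higher in 0 of the 22, beside 23.6% of all genes lower. The ERN1 call was lost with trimmed-mean scaling (-0.32, limma adjusted p = 0.38). The 3 genes most like XBP1 over 30 libraries were SRD5A3 (r = 0.852), KLHDC9 (0.846) and PRDX4 (0.84). PRDX4 is a peroxidase of the endoplasmic reticulum and SRD5A3 a reductase for the lipid carrier of protein glycosylation. The highest r was lower for XBP1 than for any of the other 5 tested factors.

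PDX1, a homeodomain factor of the pancreatic bud and of beta cells, was at 11.2, 7.63, 22.4, 1.02, 4.64 and 8.60 TPM in the pancreas of animals 1 to 6. In the other 24 libraries it was at 0.269 TPM or less, and listed at 0 in 4 of them. Even the pancreas of animal 4 lay above every other tissue. The difference from pancreas was -2.92 in parotid and -2.89 in both other glands (SE 0.30, limma adjusted p = 1.78e-07, 2.30e-07 and 1.10e-07, 6 of 6 animals), and pancreas exceeded liver by 2.83 (adjusted p = 1.72e-08 in limma). Without animal 4 the gland differences were -3.32, -3.33 and -3.28. PDX1 passed the filter through exactly its 6 pancreas libraries, so a large difference was built into its being tested in the filtered fit.

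NKX6-1, a homeodomain factor of beta cells, was at 5.91, 4.43, 27.5, 0.07, 3.69 and 5.72 TPM in pancreas and at most 0.138 TPM elsewhere. NEUROD1 and INSM1, an activator and a repressor of endocrine genes, were scarcer, at 0.0364 to 4.93 TPM and 0.0449 to 4.59 TPM in pancreas. Outside pancreas NEUROD1 was listed at 0 in 16 of 24 libraries with a maximum of 0.087 TPM, and INSM1 at 0 in 9 of 24 with a maximum of 0.0926 TPM. All 3 were below the filter. Without it they were lower in parotid than in pancreas by -2.46, -1.21 and -1.09 (SE 0.37, 0.21 and 0.20, limma adjusted p = 7.33e-05, 0.000405 and 0.000501, each 6 of 6 animals). These differences are compressed by the added 1 TPM. In submandibular gland they were -2.47, -1.19 and -1.08 (5 of 6 animals each), in sublingual gland -2.46, -1.20 and -1.08, and pancreas exceeded liver by 2.43, 1.19 and 1.05. Without animal 4 the parotid differences were -2.94, -1.44 and -1.30, those in submandibular gland -2.96, -1.43 and -1.29 and those in sublingual gland -2.95, -1.44 and -1.28. In fits of only the 12 libraries of a pair, NEUROD1 and INSM1 passed in 0 of the 3 glands, with limma adjusted p-values of 0.0598 to 0.121, and NKX6-1 missed in submandibular and sublingual gland (0.063 and 0.076).

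1 pancreas library stood high in all 4 islet factors. The pancreas of animal 3 was the highest of 6 in PDX1, NKX6-1, NEUROD1 and INSM1, at 2.76, 5.42, 3.78 and 3.98 times the median of the 6. It was also the highest in insulin (INS), at 13.0 times the median, and in GCG at 2.10 times. The trypsinogen gene PRSS1 and the carboxypeptidase gene CPA1 stood there at 0.438 and 0.513 times the median. The acinar factors did not move together in that library: RBPJL was at 1.645 times the median and GATA4 at 1.344 times, each second of 6, BHLHA15 at 0.994, PTF1A at 0.885, NR5A2 at 0.877 and XBP1 at 0.821 times. For NEUROD1, animals 1, 2, 5 and 6 lay between 0.538 and 1.54 times the median. The part of islet content, as read from INS and GCG, in these levels was not tested.

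**Figure D4:**
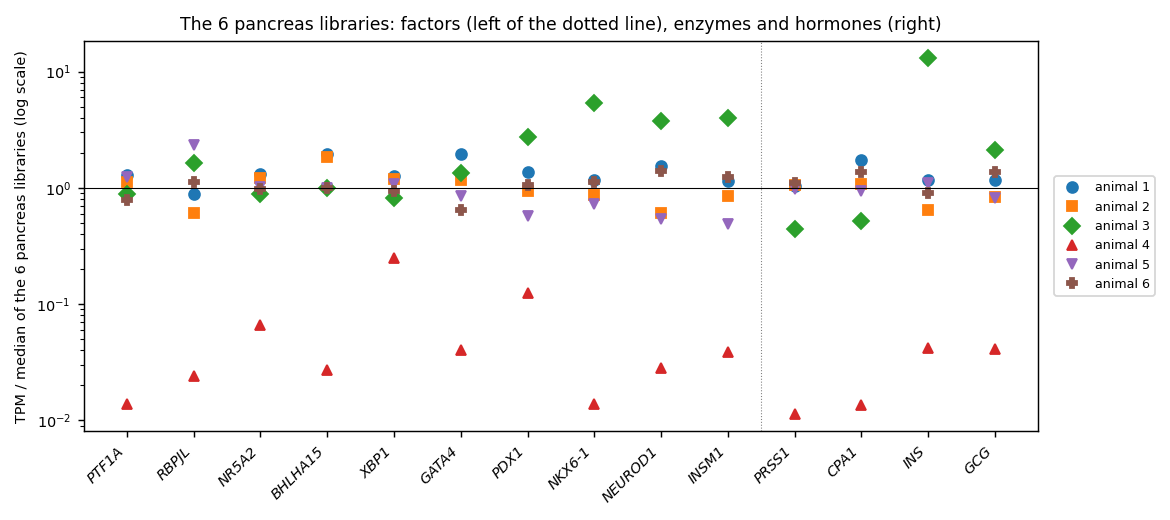
TPM in each pancreas library divided by the median of the 6 (log scale), for the 10 factors and, right of the dotted line, PRSS1, CPA1, INS and GCG. Animal 3 (diamonds) is highest for the 4 islet factors and both hormones and low for both enzymes, and animal 4 (upward triangles) is lowest for all 14 genes.

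In the pancreas of animal 4 the factors were not all reduced to the same degree. Relative to the median of the other 5, PTF1A stood at 1.23%, NKX6-1 at 1.23%, NEUROD1 at 2.005%, RBPJL at 2.16% and BHLHA15 at 2.69%. INSM1 was at 3.39%, GATA4 at 3.50%, NR5A2 at 6.50%, PDX1 at 11.8% and XBP1 at 23.3%. PRSS1 and CPA1 were at 1.10 and 1.26% and INS and GCG at 3.804 and 3.54%. GATA6, by contrast, was at 136% of the others, RBPJ at 262% and TCF3 at 273%. All these shares are before trimmed-mean scaling, whose divisor was 2.27 for that library and 0.732 to 1.49 for the other 5. Scaled shares would be lower, so no rise of GATA6, RBPJ or TCF3 is shown. PTF1A and the islet factor NKX6-1 thus had shares near those of the enzymes in that library, and XBP1 and PDX1 fell less.

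Other islet factors were mostly too low to test. ISL1, of islet and motor neurons, was lower than in pancreas by -1.75, -1.78 and -1.54 in parotid, submandibular and sublingual gland and higher in pancreas than in liver by 1.77, all called in limma. Its mean was 2.845 TPM in pancreas and at most 0.207 TPM in the other tissues. It thus passed the filter mostly through pancreas libraries, so a large difference was built into its being tested. Below the filter, MNX1 had a pancreas median of 5.29 TPM, NKX2-2 of 2.74 TPM and PAX6 of 2.48 TPM, with medians of 0.136 TPM or less in the other tissues. Among genes tested, PDX1 was most like GCG (r = 0.974), the secretin receptor gene SCTR (0.972) and ABCC8 (0.971), which encodes the sulfonylurea receptor of beta cells.

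Factors of pancreatic progenitors and ducts behaved in part like GATA4. Of 11 tested, 7 were lower in parotid than in pancreas, 6 in submandibular and 6 in sublingual gland, beside 13.6, 7.46 and 3.51% of all genes. In sublingual gland HES1, a Notch target, was higher by 2.12. FOXA2, ONECUT1 and HHEX were lower in parotid by -3.04, -2.69 and -2.67. Pancreas was higher than liver in SOX9, by 1.72, and lower in 6 of the 11, or 4 with trimmed-mean scaling, beside 23.6% of all genes. The median differences were -1.15, -0.86 and -0.50 in the 3 glands, beside -0.48, -0.33 and 0.23 over all genes. SOX9, of ducts in many glands, differed from pancreas by -0.04 in parotid (limma adjusted p = 0.94).

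Counted over the 6 factors that passed the filter, 5 were lower in parotid than in pancreas (all but BHLHA15), where 13.6% of all genes were lower. In submandibular gland the same 5 were lower, beside 7.46% of all genes, and in sublingual gland 5 were lower (all but XBP1), beside 3.51%. Pancreas exceeded liver in 3, RBPJL, BHLHA15 and PDX1, beside 6.76% of all genes. Since NR5A2, GATA4 and PDX1 passed the filter through the tissues where they are high, these counts describe the set and support nothing further. All 30 differences of the 10 factors between a gland and pancreas kept their sign when TPM were rescaled by trimmed-mean factors, except BHLHA15 in submandibular gland.

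**Figure D5:**
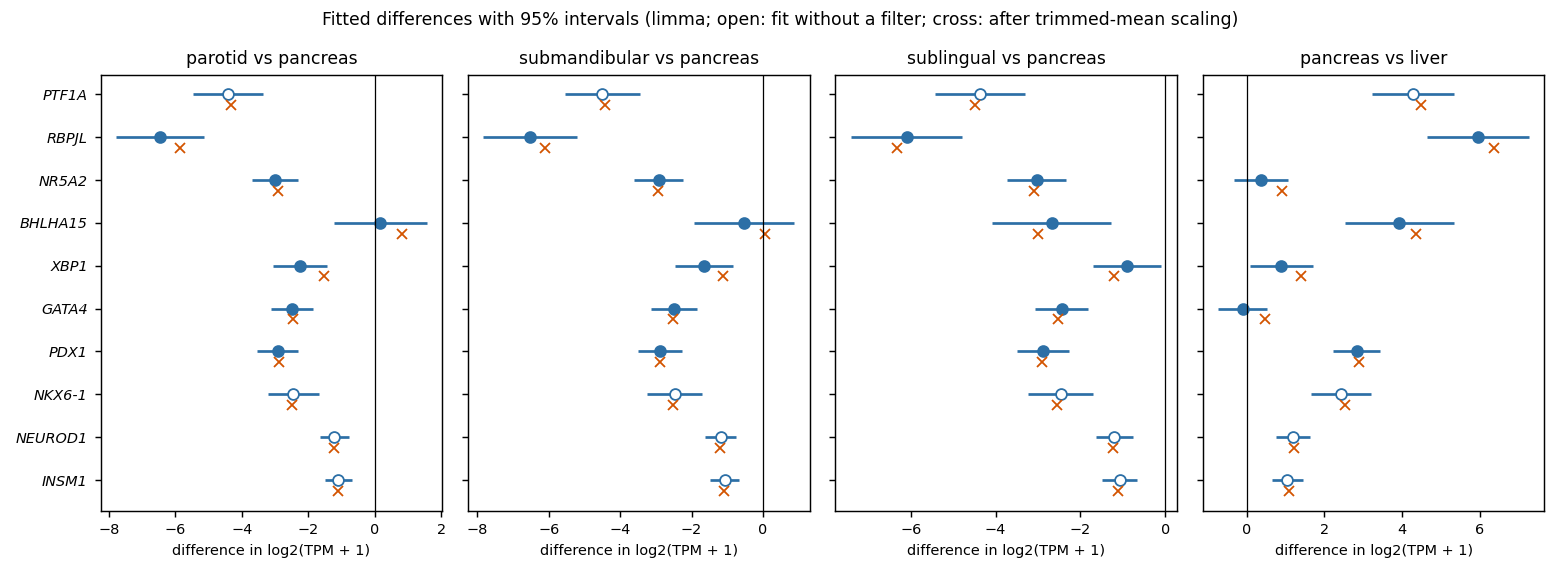
Fitted differences in log2(TPM + 1) with 95% intervals in 4 comparisons (the 3 glands with pancreas, and pancreas with liver), with open points for factors below the filter and crosses for trimmed-mean scaling. The intervals of BHLHA15 in parotid and submandibular gland and of NR5A2 and GATA4 against liver include 0.

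The deposited TPM have a fixed total, and abundant secretory genes shift the rest. The 10 most abundant genes took 72.2% ± 16.6 of TPM in parotid and 23.7% ± 2.98 in liver (SD, n = 6). Against pancreas the median difference of all genes was -0.48 (parotid), -0.33 (submandibular) and 0.23 (sublingual), and it was -0.36 in pancreas against liver. Rescaling by trimmed-mean factors brought these to between 0.00 and 0.02. The share of calls that were higher then moved from 14.2 to 49.0%, from 23.2 to 50.4%, from 74.8 to 52.4% and from 22.3 to 45.3% in these comparisons. For the glands against liver it moved from 7.9 to 48.4%, from 11.2 to 47.5% and from 40.6 to 49.4%.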

How the data were processed

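RNA was taken from frozen tissue (3 sections of 30 µm per sample) with a column kit and DNase, and read as pairs of 150 bases on an Illumina HiSeq, per the labels' protocols. The authors deposited 1 table of TPM with 21292 gene names and 30 library columns, of which 0 were left unused. FastQC, MultiQC, cutadapt, HISAT2, kallisto, SAMtools, featureCounts and DESeq2 are named in the submitters' processing notes. The roles of these tools, their versions, the annotation and the genome build are not given in the sources used here, so no coordinates are printed. Every library sums to a fixed total and depth is unknown.

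No count test was used. Values were analysed as log2(TPM + 1), a scale that compresses differences between low values. A gene was tested if 6 or more libraries had 1 TPM or more, which left 13550 genes. limma 3.58.1 in R 4.3.3 was fitted with tissue and animal over all 30 libraries, with a variance trend, for 10 tissue pairs, and two-sided p-values were adjusted by the Benjamini-Hochberg method over all genes at a threshold of 0.05. The 4 factors below the filter (PTF1A, NKX6-1, NEUROD1 and INSM1) are reported from the same fit over the 20650 genes above 0 in any library. The fit was tested on simulated data with independent noise, capped for the most variable genes, and no library set apart. That test does not cover libraries such as the pancreas and submandibular gland of animal 4. The labels number the animals and give each 1 library per tissue, so animal was a term of the model: deviations from the tissue means correlated at 0.161 within animals and -0.0186 between them. 0 pairs of libraries were identical.

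All 10 factors are named, and all 10 symbols were found in the RefSeq gene table. Of each other list, the counts are given with up to 3 called genes of the largest difference in each direction, and the partners by name. MNX1, NKX2-2, PAX6, ACTA1, and SOX9, GATA6 and RAB26 outside the comparisons where that rule names them, were chosen after their values were seen. Some results of the other lists are not reported here. The factors and lists were chosen with earlier results of these data known. Likeness is the highest Pearson r with a gene that has a symbol. Alternatives were no block, only the 12 libraries of a pair, trimmed-mean scaling, no filter, a filter of 5 TPM, a pseudocount of 0.1, no trend, and leaving out each animal, 2 libraries of animal 4 (pancreas and submandibular) or, added after the data were seen, the parotid library of animal 6.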

Additional observations from a re-analysis of the deposited data

Results flagged for a closer look

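In 24 sets of 6 libraries of a factor and tissue, a library was picked out when its gap to the nearest of the others was large for the whole range on the log2(TPM + 1) scale (Dixon's test at the 5% level), which chance gives in about 1.2 of 24 sets. This picked out 6, of which 5 were the pancreas and 1 the submandibular gland of animal 4. In its pancreas PTF1A was at 0.609 TPM (next 34.9), RBPJL at 15.8 TPM (next 398), NR5A2 at 0.757 TPM (next 9.99), BHLHA15 at 2.57 TPM (next 93.9) and XBP1 at 113 TPM (next 373). In its submandibular gland BHLHA15 was at 1.55 TPM (next 64.2).

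In 61 comparisons of the sexes, 1 had all females moving one way and all males the other. How many chance would give was not computed, so this 1 is only described. BHLHA15 was higher in parotid than in submandibular gland in the 4 females, by 1.74 on average on the log2 scale, and lower in the 2 males, by -1.38, a difference of 3.12 that was not tested. The females include the submandibular library of animal 4, and the males the parotid library of animal 6 with its muscle genes.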

How the results depend on the processing

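Of 61 differences of single factors, 34 kept their direction and their side of the threshold in every alternative run. Leaving out the filter raised the number of factors called from 5 to 9 in each gland against pancreas and from 3 to 7 in pancreas against liver, because 4 more factors were tested. Without the pancreas and submandibular libraries of animal 4, with its sublingual library kept, the number was 5 in pancreas against liver (main 3). It was 5 in submandibular gland against liver (3) and 2 in submandibular against sublingual gland (1). In parotid against sublingual gland it was 1 with the 12 libraries and 1 with trimmed-mean scaling (2). Leaving out 1 animal at a time gave 5 to 5, 4 to 5 and 4 to 5 in parotid, submandibular and sublingual gland against pancreas, 3 to 5 in pancreas against liver, 4 to 4, 3 to 5 and 2 to 3 in the glands against liver, and 0 to 0, 1 to 2 and 0 to 2 among the glands. Without the replicate block the numbers were 5, 5, 5, 3, 4, 3, 2, 0, 2 and 1 in this order, and the block changed none of them. The cause of the other changes was not tested.

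Directions that turned were those of small differences. With trimmed-mean scaling BHLHA15 in submandibular gland against pancreas became 0.066, GATA4 in pancreas against liver 0.46, RBPJL in the 3 glands against liver 0.51, 0.27 and 0.037, and XBP1 0.27 in submandibular gland against liver, 0.20 in sublingual gland against liver and 0.076 in submandibular against sublingual gland. Without the 2 libraries of animal 4, BHLHA15 became -0.67 in parotid against pancreas and -0.12 in parotid against submandibular gland, and GATA4 0.31 in pancreas against liver. Leaving out 1 animal at a time, these 3 ranged from -0.76 to 0.52, from -0.22 to 1.14 and from -0.30 to 0.26, with the sign turned without animal 4. In sublingual gland against liver XBP1 ranged from -0.38 to 0.22, turning without animals 1, 4 and 6, and RBPJL from -0.35 to 0.061, turning without animal 2. RBPJL in submandibular gland against liver was called without animal 4 (-0.82, limma adjusted p = 0.0221).

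The number of genes called over all tested moved more. Leaving out 1 animal gave 947 (without animal 3) to 2728 in parotid against pancreas (2141), 623 (without animal 3) to 3946 (without animal 4) in submandibular gland (1316) and 1104 (without animal 1) to 4277 (without animal 4) in sublingual gland (1887). It gave up to 6575 in pancreas against liver (4114), 5 to 86 between parotid and submandibular gland (47), 2854 to 8090 in parotid against sublingual gland (5625) and 1281 to 8865 in submandibular against sublingual gland (3787). Without the 2 libraries of animal 4 the counts were 3982, 4551, 6609, 79 and 9035 in submandibular and sublingual gland against pancreas, pancreas against liver, parotid against submandibular and submandibular against sublingual gland. With the 12 libraries they were 2582, 1049, 0 and 666 in submandibular and sublingual gland against pancreas, parotid against submandibular and submandibular against sublingual gland. Trimmed-mean scaling gave 2185, 2916, 96, 2410 and 2036 in submandibular and sublingual gland against pancreas and in the 3 gland pairs. A filter of 5 TPM gave 1183, 2726 and 29 in sublingual gland against pancreas, sublingual gland against liver and parotid against submandibular gland, and leaving out the parotid library of animal 6 gave 3444 in parotid against pancreas.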
